A study of Arabidopsis thaliana with 4 samples.

Results

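The 10 Arabidopsis thaliana genes described here encode enzymes that inactivate auxin, and their transcripts were measured in callus. They are the GRETCHEN HAGEN 3 (GH3) genes GH3.1, GH3.2, GH3.3, GH3.4, GH3.5, GH3.6, GH3.9 and GH3.17, and DIOXYGENASE FOR AUXIN OXIDATION 1 and 2 (DAO1 and DAO2). These 10 loci were picked by locus code from a count table of 23922 loci. A row was found for 9 of them, and 8 passed the filter on low counts, among 19325 genes that did. GH3.4 (AT1G59500) had no row and is not analysed here. DAO2 had a row but too few reads to be tested.

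Callus, a proliferating tissue, grows from explants on callus induction medium (CIM). Per the labels' protocols, hypocotyls of seedlings kept 9 days in darkness were placed for 5 to 6 days on CIM with 11 µM 2,4-D, a synthetic auxin, 0.2 µM kinetin, a cytokinin, and 2% sucrose, under continuous light at 22 °C. Both groups received this medium, and each RNA sample was made from about 100 calli. RNA-seq libraries were labelled wild type (accession Col-0) or plt1 plt2, a double mutant of the root stem cell regulators PLT1 and PLT2, with 2 libraries per label. The alleles are not stated in the labels, and nothing says that samples sharing a label were separate cultures; p-values therefore measure only the spread between these samples.

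GH3 enzymes of the auxin-acting subgroup are amido synthetases that join indole-3-acetic acid (IAA), the main natural auxin, to an amino acid and so take it out of the active pool. Several of their genes are classical early auxin response genes, transcribed within a short time of auxin addition through auxin response factors (ARFs). DAO enzymes are dioxygenases that act in the oxidation of auxin. Amidohydrolases can release IAA from some conjugates, while glucosyltransferases and a methyltransferase modify IAA at the same carboxyl group.

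ARFs bind DNA elements with the core TGTC, of which TGTCTC is the classical form and TGTCGG a strongly bound one in Arabidopsis. The 300 bases before the annotated gene start were read from TAIR10.1 for all 10 genes and searched on both strands for TGTCTC and TGTCGG. Those of the 3 genes that differed between the labels (GH3.1, GH3.5 and GH3.17) and of a pair of close relatives that were not called (GH3.2 and GH3.3) are shown 5′ to 3′ on the strand of the gene, with TGTCTC in capitals and the last base next to the start. They are chr2:6453798-6454097 (minus strand), chr4:13653279-13653578 (plus), chr1:9824869-9825168 (plus), chr4:17579318-17579617 (plus) and chr2:9866563-9866862 (minus).
GH3.1: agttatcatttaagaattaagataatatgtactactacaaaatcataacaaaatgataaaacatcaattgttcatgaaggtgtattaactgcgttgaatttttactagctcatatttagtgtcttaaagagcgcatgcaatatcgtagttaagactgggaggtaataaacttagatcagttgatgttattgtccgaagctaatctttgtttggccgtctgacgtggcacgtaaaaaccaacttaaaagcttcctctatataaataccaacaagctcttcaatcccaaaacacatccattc
GH3.5: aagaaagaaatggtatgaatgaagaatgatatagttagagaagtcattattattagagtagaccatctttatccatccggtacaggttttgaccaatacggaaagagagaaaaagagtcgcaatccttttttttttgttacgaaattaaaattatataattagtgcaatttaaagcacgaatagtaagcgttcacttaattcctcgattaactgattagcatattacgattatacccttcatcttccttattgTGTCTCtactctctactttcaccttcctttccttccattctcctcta
GH3.17: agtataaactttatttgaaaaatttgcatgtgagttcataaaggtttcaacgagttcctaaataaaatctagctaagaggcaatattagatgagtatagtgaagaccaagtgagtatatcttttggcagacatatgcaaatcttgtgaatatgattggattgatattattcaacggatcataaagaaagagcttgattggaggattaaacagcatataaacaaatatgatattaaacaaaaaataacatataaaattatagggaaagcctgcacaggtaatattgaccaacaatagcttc
GH3.2: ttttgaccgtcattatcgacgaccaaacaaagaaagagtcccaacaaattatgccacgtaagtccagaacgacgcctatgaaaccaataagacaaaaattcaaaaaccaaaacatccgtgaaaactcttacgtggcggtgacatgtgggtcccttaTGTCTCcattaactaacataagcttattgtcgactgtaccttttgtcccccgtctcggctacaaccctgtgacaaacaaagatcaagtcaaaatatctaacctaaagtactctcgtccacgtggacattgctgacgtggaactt
GH3.3: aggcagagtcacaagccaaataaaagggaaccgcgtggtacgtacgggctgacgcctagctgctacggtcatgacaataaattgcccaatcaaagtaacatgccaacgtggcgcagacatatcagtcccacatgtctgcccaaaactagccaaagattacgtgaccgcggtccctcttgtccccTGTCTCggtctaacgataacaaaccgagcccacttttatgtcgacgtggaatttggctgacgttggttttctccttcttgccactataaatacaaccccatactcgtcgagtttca

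TGTCTC lay within 300 bases of the start of 3 of the 10 genes, GH3.2, GH3.3 and GH3.5. The same element occurred in 13% of 27443 protein-coding upstream windows of that length. It began 144 bases before the start of GH3.2, 116 before that of GH3.3 and 47 before that of GH3.5. TGTCGG was in none of the 10 windows and in 4.91% of all windows. In windows of 1000 bases, TGTCTC was found before 6 of the 10 genes and in 39.6% of all windows, and the one before GH3.1 began 806 bases upstream. In windows of that length, TGTCGG was found before 2 of the 10 genes and in 14.6% of all windows. DAO1 held it at 449 and 607 bases and GH3.2 at 605 bases. Exons of another gene covered 145 of the 300 bases before DAO1 and 104 of those before GH3.9. Such overlap was not counted in the windows of 1000 bases. The palindrome CACGTG, the G-box bound by several transcription factor families, was present within 300 bases of GH3.2 (27 bases before the start) and DAO2 (106 bases), and in 7.09% of all windows. Of the genes shown, GH3.5 held TGTCTC within 300 bases and rose, while GH3.1 and GH3.17 held neither TGTCTC nor TGTCGG there and rose. GH3.2 and GH3.3 held TGTCTC and were not called. GH3.6, GH3.9 and DAO1 held neither element within 300 bases and were not called either. Other forms of the TGTC core were not searched, and a part of these elements in the differences between labels was not tested. A match is not a shown binding site.

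Library totals ranged from 53907649 to 63209401 reads. Libraries sharing a label differed beyond counting noise, with a chi-square over its degrees of freedom of 5.35 and 7.75, but less than those with different labels (21.0 or more). Of the disrupted genes, PLT1 had a TMM-scaled level, in counts relative to the library total (CPM), of 171 and 166 under the wild type label and 122 and 128 under the plt1 plt2 label. PLT2 had 63.0 and 62.1 against 182 and 179 CPM, so the higher pair carries the label of its own mutant. Reads of a disrupted gene can persist, and counts per gene do not show where they lie, so libraries are named by label and every direction rests on the labels. The callus genes WOX5, SCR, LBD16, LBD17, LBD18 and LBD29 had reads in every library, with summed levels of 682 to 688 CPM under the wild type label and 663 to 720 CPM under the plt1 plt2 label. These sums hide opposite changes: by the test described below, WOX5 (log2 fold change 0.19), LBD16 (0.28), LBD17 (0.49) and LBD18 (0.21) rose under the plt1 plt2 label, SCR fell (-0.37, edgeR adjusted p = 0.000871) and LBD29 (-0.26) was not called. Without wild type 1 the calls of WOX5 (edgeR adjusted p = 0.242), LBD16 (0.112), LBD17 (0.0788) and LBD18 (0.0518) ended. Those of LBD16 (0.0514), LBD17 (0.190) and LBD18 (0.247) also ended without wild type 2, and those of WOX5 (0.0604), LBD17 (0.0900) and LBD18 (0.0726) without plt1 plt2 1, while LBD29 was called lower without plt1 plt2 2 (0.0155). The call of SCR did not end without any 1 library.

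Of the 8 tested genes, 3 rose in the libraries labelled plt1 plt2, 0 fell and 5 were not called (edgeR quasi-likelihood test, adjusted p below 0.05 over all genes tested). The genes that rose were GH3.1 (1.48-fold), GH3.5 (1.21-fold) and GH3.17 (1.15-fold), each a conjugating enzyme. Against this count, 4.63% of all tested genes were called higher, 5.86% lower and 10.5% in either direction. Both plt1 plt2 libraries lay above both wild type libraries, by label, for 4 of the 8 (GH3.6 beside those called) and for 27% of all tested genes, and below them for 2 of the 8 (GH3.2 and GH3.9) and for 27.7% of all tested genes. The calls of GH3.5 and GH3.17 ended without the library labelled wild type 1, and likewise without wild type 2, while that of GH3.1 held. The number of genes called over all tested genes also changed when 1 library was left out, as given in the last section. Leaving out 1 library leaves its label with a single library, which is then assumed to vary like the 2 of the other label. The median log2 fold change of the 8 was 0.11, and that of all tested genes was 0.00 after rounding.

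**Figure D1:**
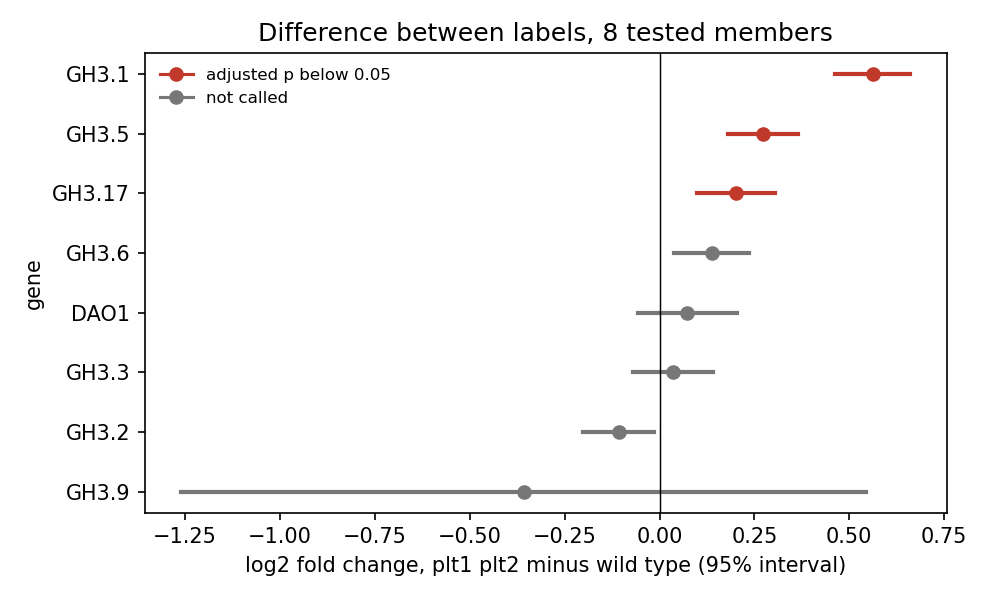
Log2 fold change, plt1 plt2 minus wild type, of the 8 tested genes, with 2 libraries per label; points are edgeR estimates and bars 95% intervals. GH3.1 stood at 0.56, GH3.5 at 0.27 and GH3.17 at 0.20, all called higher (red), while the grey genes were not called and the interval of GH3.9 was the widest, from -1.26 to 0.54.

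GH3.1 (AT2G14960; TAIR10.1 chromosome 2, 6451319 to 6453797, minus strand, 3 exon blocks) encodes an amido synthetase of the auxin-conjugating subgroup. Wild type libraries 1 and 2, by label, held 269 and 257 CPM of it, and plt1 plt2 libraries 1 and 2 held 393 and 383 CPM. Both libraries labelled plt1 plt2 thus lay above both labelled wild type, with a gap far wider than the distance between libraries of a label. The means were 263 ± 7.95 and 388 ± 7.56 CPM (SD, n = 2), and the log2 fold change was 0.56 ± 0.04 (SE; edgeR adjusted p = 3.03e-05). This was the smallest p among the 8 genes, at place 98 of all tested genes. The increase of 125 CPM was the 9th largest of any gene in the table, a ranking that favours abundant genes. The call held under all 9 alternative settings, with log2 fold changes of 0.53 to 0.59.

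GH3.5, also known as WES1 (AT4G27260; chromosome 4, 13653579 to 13656285, plus strand, 3 exon blocks), acts on IAA and also on salicylic acid. It was the most abundant of the genes, at 1649 and 1652 CPM under the wild type label and 1993 and 1996 CPM under the plt1 plt2 label. Each label's libraries lay close together and the labels did not overlap. By mean CPM, GH3.5 held place 11 of all 23922 loci, and its increase of 344 CPM was the 2nd largest in the table. Places by CPM difference favour abundant genes, and GH3.6, which was not called, held place 15 by that measure. Its log2 fold change was 0.27 ± 0.04 (edgeR adjusted p = 0.00204). Without the library labelled wild type 1 or wild type 2 the estimate stayed at 0.27 while the adjusted p became 0.0538 and 0.0507.

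GH3.6, also known as DFL1 (AT5G54510; chromosome 5, 22130964 to 22133688, minus strand), is the nearest relative of GH3.5 in the group, with 84.1% of aligned coding bases identical. Under the wild type label it stood at 965 and 918 CPM, and under the plt1 plt2 label at 1026 and 1046 CPM. Both values under the plt1 plt2 label were the higher ones. The log2 fold change of 0.14 ± 0.04 was not called (edgeR adjusted p = 0.0830; 95% interval 0.04 to 0.24). Other settings moved it past the threshold: no filter on low counts (adjusted p = 0.0447), DESeq2 (0.0340), and leaving out the library labelled plt1 plt2 1 (0.00459) or plt1 plt2 2 (0.0320). The 95% intervals of GH3.1 (0.46 to 0.66) and GH3.5 (0.18 to 0.37) did not overlap, but differences between members were not tested.

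GH3.17 (AT1G28130; chromosome 1, 9825169 to 9828118, plus strand, 3 exon blocks) encodes an enzyme known for making the glutamate conjugate of IAA. The libraries labelled wild type had 85.2 and 85.6 CPM, and those labelled plt1 plt2 had 95.3 and 101 CPM. Its groups did not overlap, and the log2 fold change was 0.20 ± 0.05 (edgeR adjusted p = 0.0204). That call ended without wild type 1 (adjusted p = 0.104), wild type 2 (0.103) or plt1 plt2 2 (0.0810).

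GH3.2 and GH3.3 are close relatives that were well expressed and not called. GH3.2, listed as BRU6 in RefSeq (AT4G37390; chromosome 4, 17579618 to 17582022, plus strand), had 416 and 415 CPM under the wild type label against 387 and 384 CPM under the plt1 plt2 label. Here the libraries labelled plt1 plt2 were the lower ones and the labels did not overlap. The log2 fold change was -0.11 ± 0.04 (edgeR adjusted p = 0.138; 95% interval -0.20 to -0.02). GH3.3 (AT2G23170; chromosome 2, 9863855 to 9866562, minus strand) had 583 and 580.2 CPM against 576 and 617 CPM, so its labels overlapped. Its log2 fold change was 0.04 ± 0.05 (edgeR adjusted p = 0.698), with a 95% interval of -0.07 to 0.14 that leaves out a rise as large as those of GH3.5 and GH3.1. In coding sequence GH3.2 shared 81.4% of aligned bases with GH3.3 and 90.9% with GH3.4. Of the 50-base stretches within single exons of GH3.2, 1.14% also occurred in GH3.4 and in no other place in the genome. Few reads of this length within an exon could thus be shared. For the other 8 genes with a row, none of the 50-base stretches within single exons occurred elsewhere. Stretches across exon joints were not searched, and the coding sequences of GH3.2 and GH3.3 shared an identical run of 56 bases.

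GH3.9 (AT2G47750; chromosome 2, 19560127 to 19563960, minus strand, 4 exon blocks) was close to silent. Only 20 and 24 reads were counted under the wild type label, and 17 and 18 under the plt1 plt2 label. The corresponding levels were 0.342 and 0.422 CPM against 0.268 and 0.330 CPM, the lower pair under the plt1 plt2 label. Its log2 fold change of -0.36 ± 0.41 was not called (edgeR adjusted p = 0.646), and with so few reads changes between -1.26 and 0.54 lay within the 95% interval. A gene on the other strand overlaps 264 of its 2924 exon bases, so the source strand of those reads is uncertain.

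DAO1 and DAO2 lie next to each other on chromosome 1, 634 bases apart with no gene between them, and share 83.2% of aligned coding bases. DAO1 (AT1G14130; 4835724 to 4837771, minus strand, 3 exon blocks) had 31.5 and 30.7 CPM under the wild type label and 31.3 and 34.1 CPM under the plt1 plt2 label. The labels overlapped. The log2 fold change was 0.07 ± 0.06 (edgeR adjusted p = 0.497), with a 95% interval of -0.06 to 0.20. DAO2 (AT1G14120; 4833396 to 4835089, minus strand, 4 exon blocks) had 4 and 2 reads under the wild type label and 0 in both libraries under the other. With 6 reads in all, no fold is given and no difference was tested.

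Per kb of exon, the genes spanned a wide range of levels. In descending order they were GH3.5 (700 to 847 CPM per kb over the 4 libraries), GH3.6 (396 to 451), GH3.3 (272 to 291), GH3.2 (177 to 191), GH3.1 (115 to 176), GH3.17 (31.1 to 36.9), DAO1 (19.7 to 22.0), GH3.9 (0.0917 to 0.144) and DAO2 (0 to 0.0521). Within each label the libraries of neighbours in this order did not overlap. The gap between GH3.2 and GH3.1 was wide under the wild type label, 191 in both libraries against 120 and 115 CPM per kb. Under the plt1 plt2 label it was about as small as the spread between libraries, with 178 and 177 against 176 and 171 CPM per kb.

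**Figure D2:**
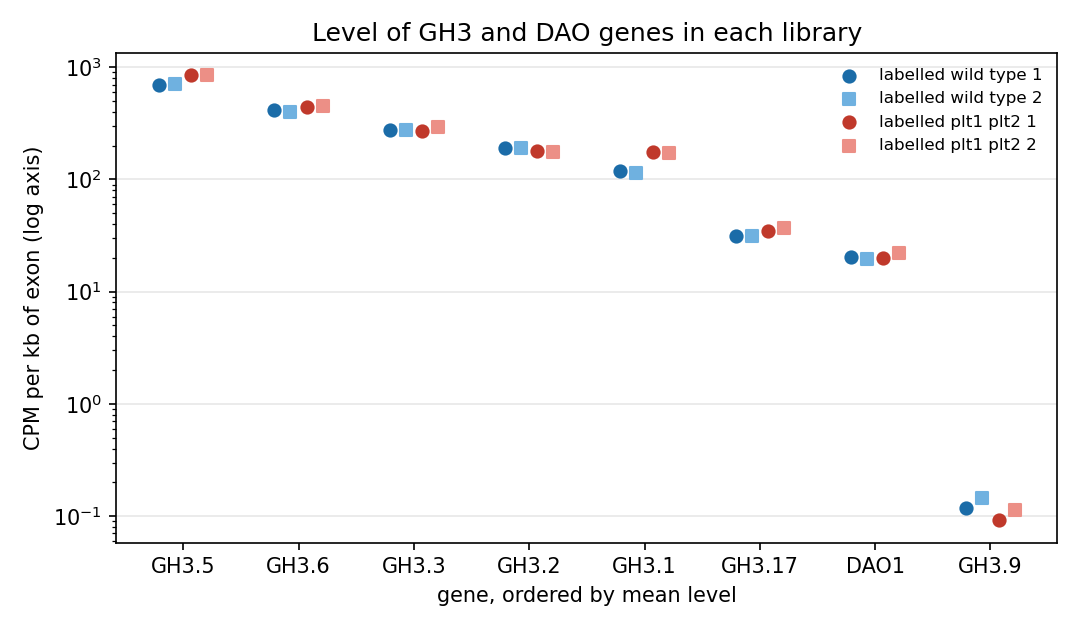
Level of 8 genes in each library, as CPM per kb of exon on a log axis, with 1 point per library; DAO2 is left out because it had 0 reads in the libraries labelled plt1 plt2. GH3.5 was highest at 700 to 847 CPM per kb and GH3.9 lowest at 0.0917 to 0.144, and GH3.1 came close to its neighbour GH3.2 under the plt1 plt2 label.

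The conjugating enzymes were also summed, as a description with no test. The 7 GH3 genes with a row together held 3967 and 3909 CPM under the wild type label and 4470.2 and 4527 CPM under the plt1 plt2 label, a ratio of 1.14. GH3.5 made up 61.3% of the summed increase, GH3.1 22.3% and GH3.6 16.8%, while GH3.2 went the other way. GH3.1 took 6.77% and 6.58% of the summed level under the wild type label and 8.80% and 8.45% under the plt1 plt2 label. The share of GH3.2 was 10.5% and 10.6% against 8.66% and 8.47%. DAO1 and DAO2 summed to 31.5 and 30.7 CPM against 31.3 and 34.1 CPM, a ratio of 1.05.

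**Figure D3:**
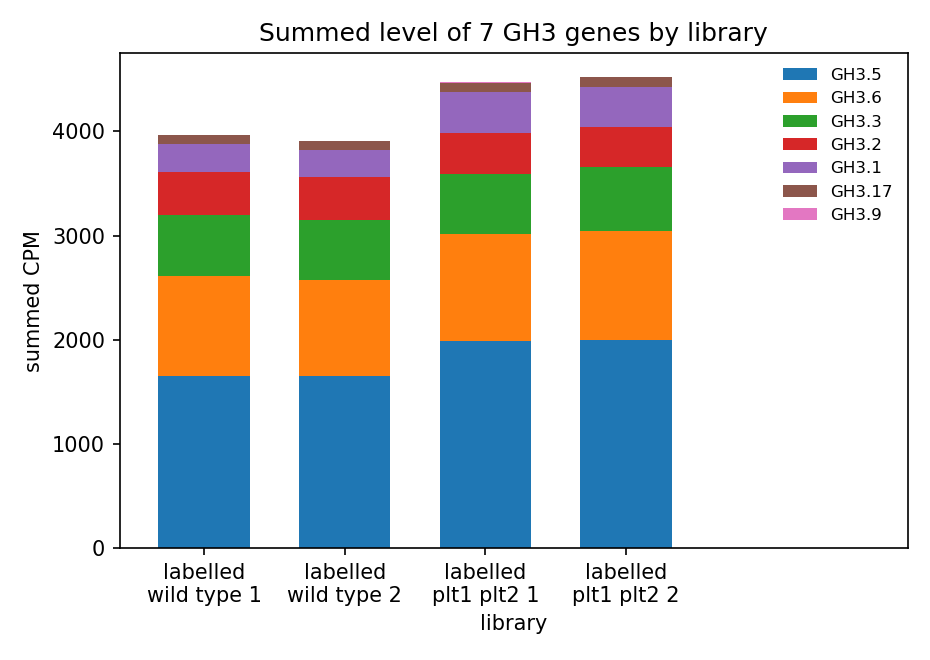
Summed CPM of 7 GH3 genes in each library, stacked by gene. The sums were 3967 and 3909 CPM under the wild type label and 4470.2 and 4527 CPM under the plt1 plt2 label, with GH3.5 as the largest part of each bar; GH3.9, below 1 CPM, is too low to be seen.

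The other steps of auxin metabolism moved in several directions. Over all tested genes, 4.63% were called higher and 5.86% lower. Of 6 tested amidohydrolase genes 1 rose and 0 fell, and the list median on the log2 scale was 0.16. The one was ILL1, with 40.4 against 45.9 CPM (log2 fold change 0.18 ± 0.05, edgeR adjusted p = 0.0347). ILL1 lost its call in DESeq2 (adjusted p = 0.109), under the replicate block (0.0570), and when wild type 1 (0.147), wild type 2 (0.142) or plt1 plt2 1 (0.113) was left out. The list called glucosyl and methyl transfer here also holds methyl esterases. Among its 5 tested genes 2 rose and 2 fell, with a median of -0.25, the value of a methyl esterase gene not called. IAMT1, which methylates IAA, rose from 52.6 to 79.8 CPM (0.60 ± 0.05; edgeR adjusted p = 6.13e-05). The change was about as large as that of GH3.1. MES16, a methyl esterase gene, rose from 4.14 to 5.84 CPM (0.50 ± 0.12, edgeR adjusted p = 0.0234). The MES16 call ended by DESeq2 (0.0731) and without wild type 1 (0.114) or wild type 2 (0.118). UGT74E2, a glucosyltransferase of the auxin precursor indole-3-butyric acid, fell from 11.9 to 2.76 CPM (-2.11 ± 0.11, edgeR adjusted p = 1.61e-06). UGT75D1 fell from 232 to 182 CPM (-0.35 ± 0.05, edgeR adjusted p = 0.00183). A further 2 glucosyltransferase genes of this list had no row and are not analysed here.

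The remaining GH3 genes act on other acids or have no role given here. Of their 6 tested members 1 was called, and it fell, where 5.86% of all tested genes were called lower. The called gene was JAR1, which makes the active jasmonate conjugate, at 80.2 against 63.4 CPM (log2 fold change -0.34 ± 0.06, edgeR adjusted p = 0.00332). PBS3, a GH3 enzyme of salicylic acid synthesis named here after its values were seen, had 290 and 34 reads under the wild type label and 255 and 489 reads under the plt1 plt2 label. The labels overlapped and it was not called (edgeR adjusted p = 0.249). Its log2 fold change was 3.42 without wild type 1 and 0.38 without wild type 2, so single libraries decided its size and no direction is read from it. Among the 6 ARF genes known as regulators of GH3 transcription, 1 rose and 0 fell, with a median of 0.01. Over all tested genes, 4.63% were called higher. ARF19, an activator, rose from 70.2 to 85.5 CPM (0.28 ± 0.06, edgeR adjusted p = 0.0163), and the call ended without wild type 2 (0.135). Of 14 TAA/YUCCA genes for IAA synthesis, 11 had a row and 5 had enough reads to be tested. Of these 5, 4 fell and 0 rose, where 5.86% of all tested genes were called lower. TAA1 fell from 16.1 to 6.03 CPM (-1.41 ± 0.13). TAR2 (2.19 to 0.942 CPM, -1.23 ± 0.27) and YUC8 (4.49 to 0.777 CPM, -2.52 ± 0.18) fell at low levels. YUC3 went from 173 and 131 reads to 0 in both libraries labelled plt1 plt2, at least 104-fold lower with a floor of 3 counts for the group as a whole. The TAR2 call ended without wild type 2 (adjusted p = 0.143). The list median was -1.41. YUC3 was the lowest of the 5 both as fitted and at this bound, so setting it to the bound could not change that median.

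**Figure D4:**
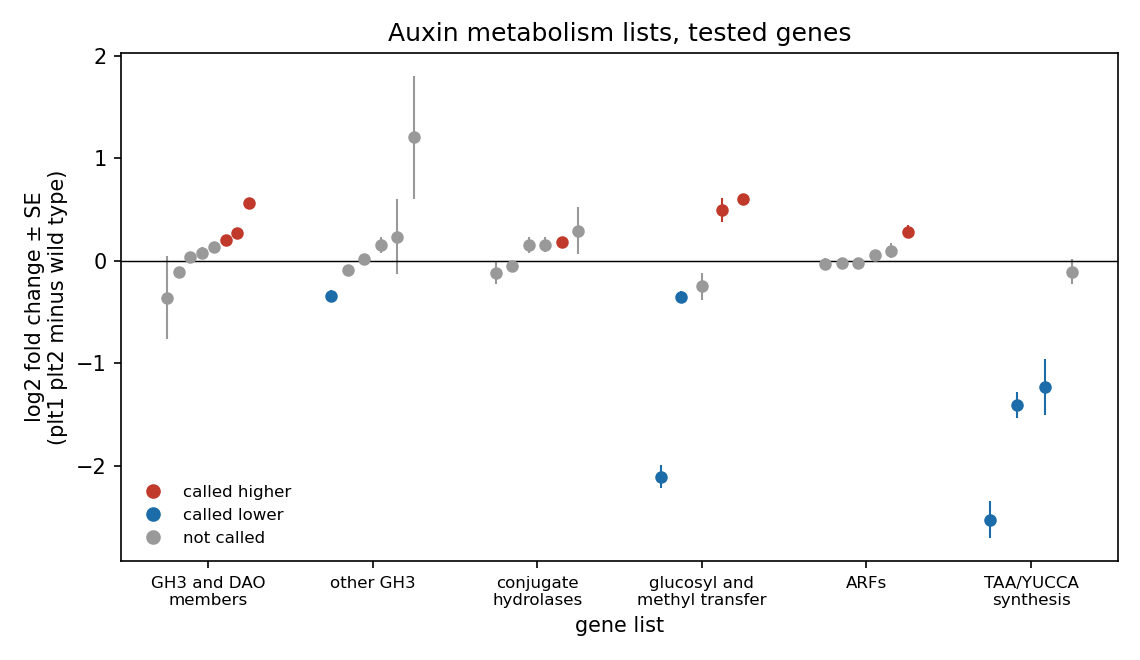
Log2 fold change, plt1 plt2 minus wild type, with SE bars, for the tested genes of each list; red genes were called higher, blue lower and grey not called, and YUC3, with 0 reads in the libraries labelled plt1 plt2, is not drawn. The GH3 and DAO genes ran from -0.36 to 0.56 and the TAA/YUCCA genes from -2.52 to -0.11. Glucosyl and methyl transfer, a list that also holds methyl esterases, split between UGT74E2 at -2.11 and IAMT1 at 0.60.

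Markers of other cell types moved between the labels too. In bulk samples fewer cells of a type and less RNA per cell cannot be told apart. All 4 root cap genes fell, where 5.86% of all tested genes were called lower. Their summed level was 57.6 to 62.4 CPM under the wild type label and 26.5 to 37.5 CPM under the plt1 plt2 label. Of 4 phloem genes 3 fell, with sums of 8.11 to 9.34 against 4.61 to 4.73 CPM. The 3 epidermis genes fell, with sums of 995 to 1059 against 789 to 850.2 CPM. Neither the 4 tested xylem genes nor the 3 tested endodermis genes were called, and their sums were 15.2 to 15.7 against 12.5 to 13.1 CPM and 2.92 to 2.99 against 2.69 to 2.77 CPM. The markers named next were picked with their values known, because 1 library decided the call. Leaving out 1 library ended some of these calls: SMB (adjusted p = 0.0927), BRN2 (0.0889), SEOR1 (0.0721), SUC2 (0.256) and PDF1 (0.0560) without wild type 1, BRN2 (0.123), SEOR1 (0.0503), SUC2 (0.111) and ATML1 (0.0853) without wild type 2, and SUC2 (0.0512) without plt1 plt2 2. Without plt1 plt2 1 the phloem gene APL (0.00593), the xylem gene LAC17 (0.0273) and the endodermis gene CASP2 (0.0355) were called lower. No marker with a row was at 0 in any library, and CASP1 had no row and is not analysed here. The part of these cell types in the GH3 differences was not tested.

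GH3.1 was also compared with all tested genes outside the lists by the Euclidean distance of centred log2 CPM over the 4 libraries. The nearest were AT1G35560 (distance 0.029, log2 fold change 0.56), AT5G65170 (0.041, 0.53) and AT5G03550 (0.044, 0.52). In all 47 genes lay within a distance of 0.1, and 4 libraries do not separate such patterns further.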

How the data were processed

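Raw read counts per gene were deposited for 4 libraries, 1 column each, with 0 columns of other samples. Trim Galore 0.5.0, STAR 2.7.2b, DESeq2 and build TAIR10 are named in the submitters' processing notes. Counting tool, annotation and strand setting are not given in the sources used here, so reads of a gene and of one on the other strand cannot be told apart. Replicates follow the titles.

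The counts were tested as deposited in edgeR 4.0.16 under R 4.3.3, by the quasi-likelihood F-test (glmQLFit, glmQLFTest) after filterByExpr and TMM scaling. Genotype was the single term. P-values were adjusted by Benjamini-Hochberg over 19325 genes, and an adjusted p below 0.05 made a call. SE is the log2 fold change divided by the square root of F. CPM used TMM-scaled totals; CPM per kb used the union of exons. The test was checked on simulated counts. Coordinates, exon lengths, overlaps and sequences are from RefSeq TAIR10.1; the count table gives none. Coding sequences were aligned globally with Biopython 1.88.

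The 10 genes and all lists were chosen with earlier results of these data known. Named genes are the 10, PLT1 and PLT2, each pathway list's called members up to the 6 with the largest change, and the 3 genes nearest to GH3.1 in pattern; where a list had no call, its 2 most abundant. Cell type markers, and PBS3, fall outside this rule. Alternatives were RLE scaling, no filter, a mean of 50 or more reads, DESeq2 1.42.0, a replicate block and leaving out each library. Intervals and floors cover counting error or the spread of these samples only.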

Additional observations from a re-analysis of the deposited data

How the results depend on the processing

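GH3.1 kept its call under all 9 alternatives, and no member was called lower under any of them. The members called higher numbered 1 to 4 when 1 library was left out, 4 with no filter and by DESeq2, and 3 under the other settings. All genes called, 2027, numbered 1068 to 3026 without 1 library, those higher (894) 433 to 1275 and those lower (1133) 606 to 1751. The amidohydrolase call (1 higher) became 0 by DESeq2 and with a replicate block, and 0 to 1 without 1 library. The 2 higher genes of glucosyl and methyl transfer became 1 by DESeq2 and 1 to 2 without 1 library. Without 1 library, other GH3 genes called higher numbered 0 to 1 and ARF genes called higher 0 to 1. The ratio of summed GH3 CPM was 1.13 to 1.15 without 1 library, and that of DAO1 with DAO2 1.00 to 1.10. Causes of these shifts were not tested.

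The replicate numbers are not said to mark a shared culture. The deviations of same-numbered libraries had a correlation of -0.111 over 19325 genes, a weak negative value that crossed numbers could also give. Only same-numbered libraries were paired here, and a crossed pairing was not tested. With the replicate number as a block, 1909 genes were called, and the members called higher stayed 3. DAO2, with 6 reads in all, and GH3.9 are limited by depth.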
